A study of Mus musculus with 4 samples.

Results

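Ribosome biogenesis is the making of ribosomal RNA (rRNA) and its assembly with ribosomal proteins into the small and large subunits. The genes described here are a list of 38 mouse genes for this process: proteins of the box C/D and H/ACA small nucleolar ribonucleoproteins (snoRNPs), abundant nucleolar proteins, processing and assembly factors of each subunit, and RNA polymerase I with its initiation factor. The list was grouped by gene function and was chosen with earlier results of these data known, so its counts are not those of a list chosen blind. Its members were taken as the probe sets whose only annotated gene symbol is in the list. A probe set is the group of array probes that measures 1 transcript. Of the 38 genes, 36 had such a probe set, among 12394 genes represented in this way, and they had 62 probe sets. Dkc1, the pseudouridine synthase of the H/ACA particles, and Nob1, the endonuclease that finishes small subunit rRNA, were not analysed here.

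The study asked what changes in cultured osteoclasts, the bone-resorbing cells of the myeloid lineage, when the transcription factor NFATc1 is deleted. Cells of 2 genotypes on the C57BL/6 strain were compared after 3 days of culture with MCSF, a survival factor of macrophages, and RANKL, which turns them into osteoclasts: NFATc1 fl/fl MxCre-, called wild-type, and NFATc1 fl/fl MxCre+, called NFATc1-deficient. Each genotype had 2 arrays, and all 4 arrays carried RNA from cells with floxed Nfatc1 alleles. Excision in the deficient mice was induced before culture by poly I:C, which switches on the interferon-responsive Mx promoter that drives Cre. That promoter is not specific to osteoclasts or their precursors. Whether the wild-type mice received poly I:C, and the age of the mice, is not stated in the sources used here. Precursors were sorted from bone marrow as c-Kit and c-Fms positive cells without CD11b, CD3e or B220, from 3 mice for replicate 1 and 4 mice for replicate 2. The design text calls the replicates biological, and p-values measure only the spread between these samples. With 2 arrays a genotype, an exact two-sided permutation test of a single gene cannot go below p = 0.333, so tests come from a model fitted across all probe sets.

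RNA polymerase I copies the rRNA genes into a long precursor inside the nucleolus. Small nucleolar RNAs guide chemical marks and cleavages on that precursor, the box C/D class for methylation and the H/ACA class for pseudouridine, each inside a particle with a fixed set of proteins. Assembly factors then fold, trim and escort the small and large subunits to the cytoplasm. The demand for ribosomes follows cell growth, and the pathway is known as a major target of the MYC transcription factor. Osteoclast formation is a passage from dividing precursors to large cells that no longer divide.

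Promoter sequences are shown first for 7 members because they span the range of changes given below: Nop58, Wdr75 and Gar1, which rose; Nhp2, which rose less; Nop2 and Rrn3, which did not pass the test and carry the motif bound by MYC and related factors; and Nop10, the member with the lowest change. Each stretch begins 250 bases before the RefSeq start used for the motif search, on assembly GRCm38.p6, and ends before the outermost annotated start of the gene, which for Nop58, Wdr75 and Gar1 lies upstream of that start. It is printed 5′ to 3′ on the strand of the gene. Capitals mark the letters CACGTG (an E-box), CCGGAAGT (a motif of ETS family factors) and GGGCGG (a GC box), searched on both strands, so that the opposite strand reads ACTTCCGG and CCGCCC for the latter pair. The stretches are Nop58 at chr1:59684756-59684960 (plus strand), Wdr75 at chr1:45794916-45795152 (plus strand), Gar1 at chr3:129831408-129831646 (minus strand), Nhp2 at chr11:51619523-51619772 (plus strand), Nop2 at chr6:125131633-125131882 (plus strand), Rrn3 at chr16:13780449-13780698 (plus strand) and Nop10 at chr2:112261676-112261925 (plus strand).
Nop58: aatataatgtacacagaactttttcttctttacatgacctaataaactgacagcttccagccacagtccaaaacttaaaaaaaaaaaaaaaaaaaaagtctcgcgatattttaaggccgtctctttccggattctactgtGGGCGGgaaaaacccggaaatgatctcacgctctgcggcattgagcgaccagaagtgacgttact
Wdr75: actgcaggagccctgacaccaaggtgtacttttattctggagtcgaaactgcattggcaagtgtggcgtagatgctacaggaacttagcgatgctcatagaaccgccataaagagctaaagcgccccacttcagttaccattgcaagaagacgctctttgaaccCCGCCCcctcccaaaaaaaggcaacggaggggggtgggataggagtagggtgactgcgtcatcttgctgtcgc
Gar1: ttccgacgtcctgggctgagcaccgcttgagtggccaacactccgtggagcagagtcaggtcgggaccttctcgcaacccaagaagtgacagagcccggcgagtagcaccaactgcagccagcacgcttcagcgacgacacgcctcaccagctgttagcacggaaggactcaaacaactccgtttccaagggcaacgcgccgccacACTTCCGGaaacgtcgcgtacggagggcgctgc
Nhp2: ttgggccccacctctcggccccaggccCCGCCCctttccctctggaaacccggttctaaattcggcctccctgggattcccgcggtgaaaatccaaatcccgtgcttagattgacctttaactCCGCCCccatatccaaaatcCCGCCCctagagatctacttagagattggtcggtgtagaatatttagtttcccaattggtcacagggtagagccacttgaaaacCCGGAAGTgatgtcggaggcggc
Nop2: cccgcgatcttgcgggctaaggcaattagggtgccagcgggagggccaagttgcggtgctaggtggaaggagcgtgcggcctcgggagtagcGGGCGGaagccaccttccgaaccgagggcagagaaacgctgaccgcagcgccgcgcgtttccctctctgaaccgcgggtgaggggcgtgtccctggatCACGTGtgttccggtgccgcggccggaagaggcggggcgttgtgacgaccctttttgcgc
Rrn3: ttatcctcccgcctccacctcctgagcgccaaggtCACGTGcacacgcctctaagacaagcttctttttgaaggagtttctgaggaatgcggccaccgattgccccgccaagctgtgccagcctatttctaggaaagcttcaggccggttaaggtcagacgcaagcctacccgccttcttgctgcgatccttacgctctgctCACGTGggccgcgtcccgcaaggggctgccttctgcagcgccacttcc
Nop10: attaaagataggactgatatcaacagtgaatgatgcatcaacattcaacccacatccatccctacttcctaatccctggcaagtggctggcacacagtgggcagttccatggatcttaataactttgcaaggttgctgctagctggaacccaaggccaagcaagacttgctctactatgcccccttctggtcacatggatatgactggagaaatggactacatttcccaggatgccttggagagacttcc

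The 36 measured members were almost all brighter in the NFATc1-deficient cultures. Nop10, Imp4 and Nop14 had slightly lower means, and no member was called lower. With the brightest tested probe set standing for each gene, 21 of 36 members rose at an adjusted p under 0.05 and 15 did not pass. The background was 12.8 percent of 7801 genes called higher and 11.9 percent called lower by the same limma fit. Per probe set, 38 of the 59 member probe sets tested rose and 0 fell, where the background was 12.8 percent higher and 11.4 percent lower of 13578 probe sets. The median log2 change of the members was 0.45 (range -0.17 to 1.20), where the median of all genes tested was 0.03. Changes are NFATc1-deficient minus wild-type on the scale log2(signal + 23.3), which understates the change of dim genes, and each standard error (SE) comes from the fit.

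Both deficient signals lay above both wild-type signals for 33 of 36 members, where 34.2 percent of all genes did so. The reverse order held for 0 members and 29.7 percent of all genes. Nop10, Imp4 and Nop14 had overlapping groups. Between the replicate 1 arrays the median change of the members was 0.44, and between the replicate 2 arrays it was 0.47, beside -0.03 and 0.09 for all genes. The changes were moderate: by the ratio of mean signals 14 members were at least 1.5-fold higher (11.5 percent of all genes were), and only Nop58 and Nop56 of the members were at least 2-fold higher. Among the 21 members that rose, the ratios ran from 1.34 to 2.37. In these bulk samples, a change in the number of cells of a type and a change in RNA per cell cannot be told apart.

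**Figure D1:**
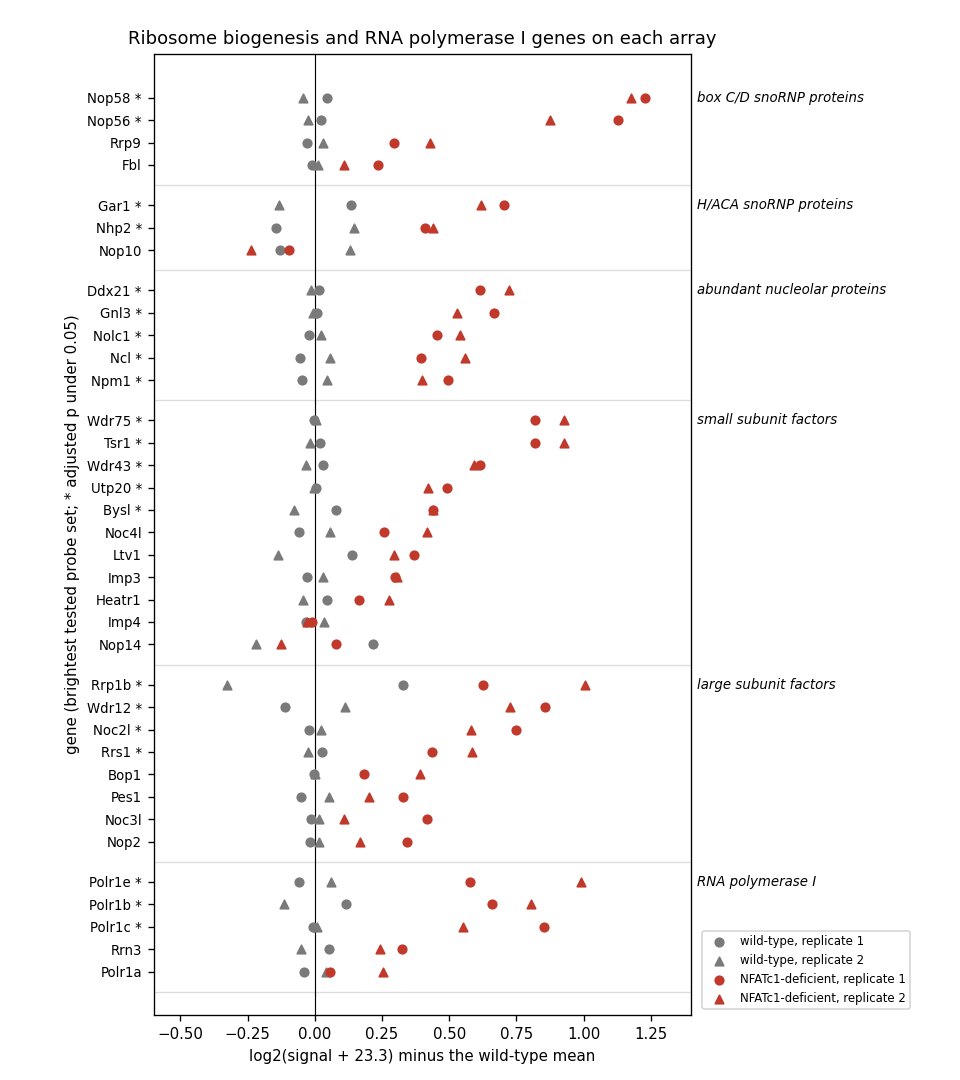
Signal of each of the 36 members on the 4 arrays, as log2(signal + 23.3) minus the wild-type mean (horizontal axis), at the brightest tested probe set, by role; grey points are wild-type arrays, red points NFATc1-deficient arrays, and an asterisk marks an adjusted p under 0.05. For 33 of 36 members both red points lie to the right of both grey points, and Nop10, Imp4 and Nop14 are the exceptions.

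The count of calls depended on the arrays, for the members and for all genes. The direction of the 21 called members was upward under every alternative run. Without NFATc1-deficient replicate 2 the median change of the members was 0.438, beside 0.001 for all genes. It was 0.44 without NFATc1-deficient replicate 1, beside 0.05. Without wild-type replicate 1 it was 0.464, beside 0.069, and without wild-type replicate 2 it was 0.485, beside 0.0. Where an array is left out, the lone array of its genotype is assumed to vary like the other genotype. Scaling the arrays to 11 hybridisation-control probe sets, RNAs added in known amounts before hybridisation, lowered every gene: the median of all genes moved from 0.03 to -0.21 and that of the members from 0.45 to 0.20. Under that scaling 2 members, Nop56 and Nop58, still passed, and 30 of 36 had a change above 0. Over all genes 3.08 percent were then higher and 15.6 percent lower. The direction of Fbl, Heatr1 and Polr1a, none of which passed, turned to below 0.

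The box C/D particle proteins included the largest changes. Nop58 and Nop56, paired scaffold proteins of every box C/D particle, about doubled, while Rrp9 and the methyltransferase fibrillarin (Fbl) did not pass at their brightest probe sets. Nop58 had signals of 479.9 and 450.6 on the wild-type arrays and 1121.7 and 1080.0 on the deficient arrays, a 2.37-fold higher mean and a log2 change of 1.20 (SE 0.12, limma adjusted p = 0.000438). Nop56 had signals of 920.9 and 889.6 in wild-type and 2003.2 and 1680.3 in deficient cultures, a log2 change of 1.00 (SE 0.12, adjusted p = 0.000944). For both genes the genotypes were well apart, and a second Nop56 probe set changed by 0.85 and passed. Rrp9, a protein specific to the U3 particle that directs the early cleavages of the precursor, had 312.4 and 327.1 against 397.8 and 438.0, a log2 change of 0.36 that did not pass (adjusted p = 0.121).

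Fbl, which transfers the methyl groups, gave different answers at its probe sets. The brighter probe set read 3901.0 and 3955.0 in wild-type and 4623.9 and 4239.4 in deficient cultures, a change of 0.17 on the log2 scale (SE 0.10, adjusted p = 0.271). The other, less bright, read 3041.9 and 3242.4 against 4666.8 and 3908.3, a log2 change of 0.44 that passed (adjusted p = 0.0269). Neither probe set had overlapping groups.

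Among the H/ACA particle proteins, Gar1 and Nhp2 rose, and Nop10 did not pass and was the lowest of all members. These proteins sit with Dkc1 in 1 particle, which makes pseudouridine in rRNA and also holds telomerase RNA. Gar1 had 1687.6 and 1395.5 in wild-type and 2515.9 and 2368.8 in deficient cultures, a log2 change of 0.66 (SE 0.12, adjusted p = 0.00563). Nhp2 had 4539.4 and 5564.4 against 6691.4 and 6829.6, a log2 change of 0.43 (SE 0.12, adjusted p = 0.0347), and a dimmer probe set changed by 0.52 and passed. The groups of both genes did not overlap, but the brighter Nhp2 probe set lost its call without wild-type replicate 1 (adjusted p = 0.0744), NFATc1-deficient replicate 1 (0.150) or NFATc1-deficient replicate 2 (0.156). Nop10 had 4447.3 and 5332.9 in wild-type and 4557.4 and 4128.7 in deficient cultures, so the groups overlapped, with a log2 change of -0.17 (SE 0.12, adjusted p = 0.368). Its other probe set, at 3164.7 and 3314.8 against 3114.9 and 3292.7, gave -0.02.

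The abundant nucleolar proteins moved as a block: all 5 genes rose, with a median log2 change of 0.50, and all of their 12 probe sets passed. Ddx21, an RNA helicase that acts on both polymerase I transcription and processing, had 835.1 and 816.4 in wild-type and 1274.9 and 1377.0 in deficient cultures, a log2 change of 0.67 (SE 0.11, adjusted p = 0.00395). Gnl3, the GTP-binding protein nucleostemin, known from proliferating stem and progenitor cells, had 2040.3 and 2017.2 against 3236.1 and 2934.9, a log2 change of 0.60 (SE 0.10, adjusted p = 0.00457). Nolc1, a phosphoprotein that binds both snoRNP classes, had 914.8 and 946.1 against 1282.5 and 1364.4, a log2 change of 0.50 (SE 0.11, adjusted p = 0.0128). In these genes wild-type replicates lay close together and each deficient array was above them.

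Nucleophosmin (Npm1), a chaperone of the nucleolus, was the brightest of the group by signal and had the smallest change: 8212.4 and 8762.3 in wild-type and 11976.4 and 11178.2 in deficient cultures, a log2 change of 0.45 (SE 0.11, adjusted p = 0.0176). Nucleolin (Ncl), which binds the nascent precursor, rose by 0.48 at its brightest probe set (5968.3 and 6460.2 against 8166.4 and 9152.1) and by up to 1.17 at 3 others, of which the dimmest read 331.4 and 321.7 against 811.1 and 719.4. The brightest probe sets of several genes of this group lost their call when an array was left out. For Ncl the adjusted p was 0.0705 without NFATc1-deficient replicate 1 and 0.168 without NFATc1-deficient replicate 2, and for Npm1 it was 0.240 and 0.117. Nolc1 had 0.0525 without NFATc1-deficient replicate 2. Ddx21 and Gnl3 passed without each array in turn.

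Of the 11 small subunit factors measured, 5 rose, 0 fell and 6 did not pass, with a median of 0.34. Wdr75 and Wdr43, subunits of the UTP-A complex that binds the precursor while it is being transcribed, both rose. Wdr75 had 755.1 and 760.1 in wild-type and 1354.6 and 1460.3 in deficient cultures, a log2 change of 0.87 (SE 0.11, adjusted p = 0.00121). Wdr43 had 908.0 and 868.1 against 1369.8 and 1350.1, a log2 change of 0.60 (SE 0.11, adjusted p = 0.00544), and 0.89 at its other probe set. Heatr1, another subunit of that complex, did not pass, at 904.6 and 847.3 against 983.4 and 1063.4 (log2 change 0.22, adjusted p = 0.217). At these brightest probe sets the deficient arrays were above the wild-type arrays. The second Heatr1 probe set had overlapping groups, at 165.2 and 174.5 against 170.5 and 234.6, and the differences between the subunits were not tested.

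The later small subunit factors were also mixed. Tsr1, which caps the nearly finished subunit, had 368.8 and 358.5 in wild-type and 658.4 and 713.0 in deficient cultures, a log2 change of 0.87 (SE 0.14, adjusted p = 0.0027). Utp20, a large scaffold of the processome, changed by 0.46 (378.7 and 377.1 against 540.9 and 513.8, adjusted p = 0.0431). Bysl (bystin), which acts on the pre-40S particle, changed by 0.44 (561.6 and 502.0 against 727.9 and 728.3, adjusted p = 0.0387), and by 1.05 at a dimmer probe set. The groups of these genes were apart. Utp20 lost its call when any 1 of the arrays was left out (adjusted p = 0.0888 to 0.192), and Bysl without wild-type replicate 2 (0.168), NFATc1-deficient replicate 1 (0.127) or NFATc1-deficient replicate 2 (0.105).

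Imp3 and Ltv1 just missed the threshold, with log2 changes of 0.30 (adjusted p = 0.0648) and 0.33 (adjusted p = 0.0886). Imp3 is part of the U3 particle's protein partners, and Ltv1 is needed for late maturation and export. Ltv1 passed without wild-type replicate 1 (adjusted p = 0.0265). Imp4, the partner of Imp3, had 1227.8 and 1286.0 in wild-type and 1246.0 and 1229.6 in deficient cultures, a log2 change of -0.02 (SE 0.11, adjusted p = 0.915). Its dimmer probe set, near a signal of 100, had the opposite sign (0.10, adjusted p = 0.853). Imp4 groups overlapped at both. Nop14 had 459.7 and 334.0 against 415.5 and 357.6, again overlapping, with a log2 change of -0.02 (adjusted p = 0.949).

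Noc4l, which binds Nop14, had 3 tested probe sets that differed. The brightest read 736.1 and 798.8 in wild-type and 922.0 and 1033.0 in deficient cultures, a log2 change of 0.34 (SE 0.12, adjusted p = 0.0798). Another, at 467.5 and 416.8 against 888.7 and 707.5, changed by 0.81 and passed (adjusted p = 0.00608), and the third changed by 0.13 (adjusted p = 0.518). The deficient signals were above the wild-type signals in each.

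Of the 8 large subunit factors, 4 rose, 0 fell and 4 did not pass, with a median of 0.40. Wdr12 forms the PeBoW complex with Pes1 and Bop1, and of that complex it alone passed. Wdr12 had 580.3 and 681.5 in wild-type and 1158.4 and 1056.7 in deficient cultures, a log2 change of 0.79 (SE 0.13, adjusted p = 0.00352). Pes1 had 1119.4 and 1207.0 against 1463.9 and 1338.7 (0.26, adjusted p = 0.129). Bop1 had 721.5 and 723.4 against 822.9 and 954.0 (0.29, adjusted p = 0.138). At these probe sets the deficient arrays were higher. The dimmer Pes1 probe set had overlapping groups, at 140.0 and 154.3 against 219.3 and 130.6, and the difference between the genes' changes was not tested.

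Noc2l, a factor of the early large subunit that is also known to repress histone acetylation, had 321.4 and 332.4 in wild-type and 564.5 and 500.6 in deficient cultures, a log2 change of 0.66 (SE 0.15, adjusted p = 0.0124). Its partner Noc3l did not pass (0.26, adjusted p = 0.266). Rrs1, which helps to install the RNP of the smallest rRNA, rose by 0.51 (1701.6 and 1639.1 against 2268.4 and 2513.7, adjusted p = 0.0101). Noc2l lost its call without NFATc1-deficient replicate 1 (adjusted p = 0.0850), and Rrs1 did so without NFATc1-deficient replicate 2 (adjusted p = 0.0542). Nop2, an rRNA methyltransferase long known as a proliferation antigen, had 724.1 and 741.5 against 936.3 and 826.1, groups that did not overlap, with a log2 change of 0.26 (SE 0.12, adjusted p = 0.173).

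Rrp1b, a nucleolar protein of the large subunit pathway, varied most between replicates. It had 421.2 and 258.5 in wild-type and 523.0 and 687.8 in deficient cultures, a change of 0.82 on the log2 scale (SE 0.23, adjusted p = 0.032). The wild-type arrays lay far apart, so that the replicate 1 arrays differed by 0.30 and the replicate 2 arrays by 1.33. Its adjusted p was 0.0884 without wild-type replicate 2 and 0.125 without NFATc1-deficient replicate 2. The other Rrp1b probe sets had closer replicates, at 238.7 and 212.3 against 431.4 and 369.8 (0.77) and at 157.4 and 131.6 against 264.7 and 276.2 (0.81), and both passed.

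Of the 5 RNA polymerase I genes 3 rose, with a median of 0.70. Polr1b, Polr1c and Polr1e rose. Polr1a, the largest subunit, and Rrn3, the initiation factor that bridges the enzyme to the promoter, did not pass, and the difference between the genes was not tested. Polr1e had 196.9 and 215.9 in wild-type and 318.7 and 432.2 in deficient cultures, a log2 change of 0.78 (SE 0.19, adjusted p = 0.0196). Polr1b, which forms the active centre with Polr1a, had 346.4 and 291.2 against 515.7 and 571.9, a log2 change of 0.73 (SE 0.16, adjusted p = 0.0105). Polr1c, which RNA polymerase III shares, had 702.3 and 710.0 against 1292.1 and 1046.4, a log2 change of 0.70 (SE 0.13, adjusted p = 0.00657). In these genes the groups were clearly apart, the second probe sets of Polr1c (0.76) and Polr1e (0.73) also passed, and Polr1e lost its call without NFATc1-deficient replicate 2 (adjusted p = 0.133).

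Polr1a had 245.2 and 260.8 in wild-type and 263.8 and 306.0 in deficient cultures, a log2 change of 0.15 (SE 0.17, adjusted p = 0.567), and its groups were separated only narrowly. A second tested probe set of Polr1a gave 0.01 (adjusted p = 0.985). Rrn3 had 455.8 and 422.5 against 555.4 and 522.7, a log2 change of 0.28 (SE 0.14, adjusted p = 0.176). Of the dim probe sets of members, 3 fell below the filter on low signal and were not tested, 1 each of Wdr75, Wdr12 and Polr1a.

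Probe sets of 1 gene mostly gave the same call. Of 18 members with more than 1 tested probe set, all passed for 11, none passed for 5, and only Fbl and Noc4l had both outcomes. Imp4 was the only one of the 18 whose probe sets differed in sign. The brightest probe set had the lowest change in 10 of the 18, as in Ncl and Bysl. Of the 62 probe sets, 19 are of types that can detect several transcripts or gene copies, and values from those are less certain, as they are for Npm1, which has near-identical copies in the genome.

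**Figure D2:**
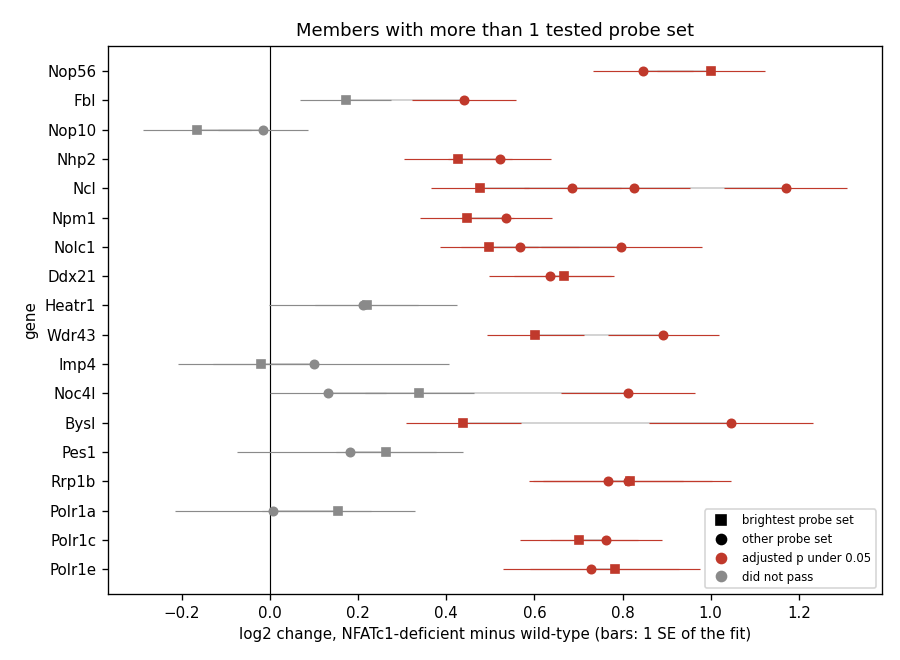
Log2 change (horizontal axis, NFATc1-deficient minus wild-type, bars of 1 SE of the fit) of every tested probe set of the 18 members with more than 1; squares are the brightest probe set, circles the others, and red marks an adjusted p under 0.05. All probe sets are red for 11 genes and none for 5, and the probe sets of Ncl spread from 0.48 to 1.17.

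Of the 36 members, 6 hold annotated small nucleolar RNA genes within their bounds in RefSeq, and all 6 rose (median 0.74). They are Nop58 (Snord70 and Snord11), Nop56 (Snord110 and Snord57), Ncl (Snora75 and Snord82), Gnl3 (Snord69 and Snord19), Wdr43 (Snord92 and Snord53) and Tsr1 (Snord91a). Intronic genes of this kind are released from the host transcript, so a host gene carries part of the pathway's RNA as well as its protein. Of the 30 members without one, 15 rose (median 0.39). Among all genes tested that had a RefSeq position, 45 of 7725 held a small nucleolar RNA gene, and 12 of the 45 were higher, of which 6 are the members themselves. Outside the members 6 of 39 such genes (15.4 percent) were higher, near the 12.6 percent of the genes without one. The small nucleolar RNAs were not measured here, and their strand was not compared with that of the host. This split was chosen after the values were seen and is a description.

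In the promoter windows of RefSeq, from 250 bases before to 50 after the start, 32 of the tested members had an entry. A gene was counted if any of its windows held the motif. The E-box CACGTG was held by 8 of 32 members (25 percent) and by 12.4 percent of all tested genes. Counted per window, and with genes not tested, 7.15 percent of all 32851 windows held it. Of the 8 members with it 3 rose, and of the 24 without it 16 rose, while over all genes tested 100 of 797 with it and 729 of 5638 without it were higher. The printed stretches of Rrn3 and Nop2 (with it) and Nop58 and Wdr75 (without it) are examples, but not of the 3 members with it that rose. Those were Tsr1, Wdr43 and Utp20. CCGGAAGT was held by 9 of 32 members (28.1 percent), 10.2 percent of tested genes and, per window, 3.89 percent of all windows. Of the 9 members with it 6 rose, Gar1 and Nhp2 among them, beside 13 of the 23 without it. Over all genes tested 98 of 659 with it and 731 of 5776 without it were higher. GGGCGG was held by 25 of 32 members (78.1 percent), 70.3 percent of tested genes and, per window, 35.7 percent of all windows. Of those 25 members 18 rose, and 1 of the 7 without it did. Over all genes tested, 601 of 4524 with GGGCGG were higher and 228 of 1911 without it. In member windows 2 pairs of different motifs overlapped (in Rrn3 and Tsr1), as did 4 pairs of GC boxes in Gnl3. The motifs were chosen after the values were seen, and a match is a description of letters, not of a bound site.

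The wider pathway moved with the members. Over 7 further lists of ribosome-making genes, 59 of 115 genes tested were higher and 1 was lower, with a median log2 change of 0.44, beside the 12.8 and 11.9 percent of all genes. The count of higher genes was 6 under hybridisation-control scaling, where 3.08 percent of all genes were higher, and it varied with the array left out. Other small subunit factors had 15 of 32 higher (median 0.42), led by Tsr2 (1.18), the rRNA dimethylase Dimt1 (1.13) and Rcl1 (0.95), and Tsr2 and Dimt1 each had another probe set that did not pass. Other large subunit factors had 20 of 37 higher (median 0.44), led by Rpf2 (1.24), Nop16 (0.96) and Rpf1 (0.80), and 1 of 3 Rpf2 probe sets did not pass. In both lists 0 genes were lower.

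Lists for helicases, particle assembly, trimming and export each had genes called higher and 0 called lower, beside 12.8 and 11.9 percent of all genes. In lists this short, 0 called lower says little. The helicase Ddx24 (-0.39, adjusted p = 0.0929) and C1d of the trimming list (-0.26, adjusted p = 0.103) had lower signals and did not pass. Of 10 further nucleolar RNA helicases 5 rose (median 0.46), with Ddx27 at 0.70, Ddx18 at 0.66 and Ddx10 at 0.65, although another Ddx10 probe set gave 0.00. Of 7 snoRNP assembly factors 6 rose (median 0.61), with Nufip1 at 0.91, the ATPase Ruvbl1 at 0.83 and the H/ACA assembly factor Naf1 at 0.68. Of 13 genes listed for trimming, 7 rose (median 0.40). They included the nuclease Dis3 at 0.93, Exosc1 at 0.74 (a second probe set did not pass) and Exosc9 at 0.64. The list held the RNA exosome, the complex that trims the precursor from its end, and the further factors Mtrex, Mphosph6, C1d and Xrn2. Of these further factors Mtrex and Mphosph6 rose. Of 7 genes for nuclear export of the subunits 4 rose (median 0.37), with Nxt1 at 0.69, the exportin Xpo1 at 0.62 and Ranbp2 at 0.49. Ranbp2 lost its call without wild-type replicate 2 (adjusted p = 0.102) or NFATc1-deficient replicate 2 (0.112).

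Of 9 other RNA polymerase I genes, 2 were higher and 1 lower, beside 12.8 and 11.9 percent of all genes, with a median of 0.13 that turned to -0.10 under hybridisation-control scaling. Taf1d, of the promoter selectivity factor, was at 0.84 and Mybbp1a at 0.57, and both missed the threshold without NFATc1-deficient replicate 1 (adjusted p = 0.0577 and 0.0532). Of 4 tested Taf1d probe sets 2 did not pass. Taf1a was at 0.49 and did not pass (adjusted p = 0.188). The gene that fell was Polr1d, named here after its values were seen, which partners Polr1c in both RNA polymerases I and III. Polr1d had 4296.8 and 4658.6 in wild-type and 3531.2 and 3198.5 in deficient cultures, a log2 change of -0.41 (SE 0.11, adjusted p = 0.0251), opposite in sign to Polr1c. Its other probe set did not pass (-0.23, adjusted p = 0.342). The call was lost without wild-type replicate 2 (adjusted p = 0.0515), NFATc1-deficient replicate 1 (0.0702) or NFATc1-deficient replicate 2 (0.176).

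**Figure D3:**
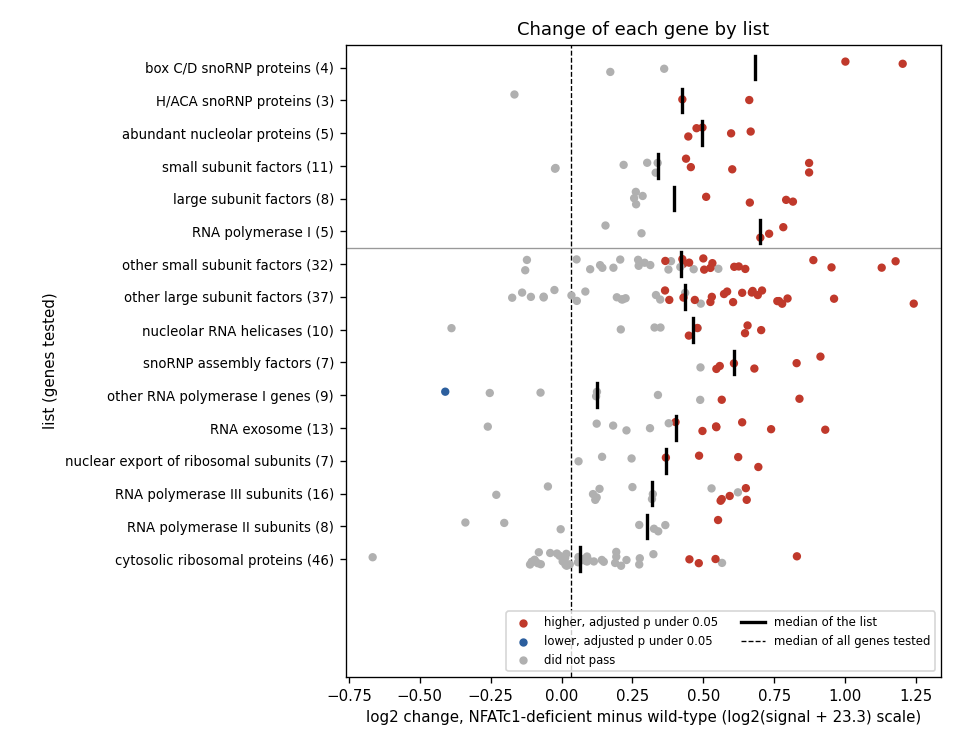
Log2 change of each gene (horizontal axis, log2(signal + 23.3) scale) in the 6 role groups of the members, above the grey line, and in 10 neighbouring lists; red is higher and blue lower at an adjusted p under 0.05, black bars are list medians and the dashed line is the median of all genes, 0.03. The member groups have medians from 0.34 to 0.70, other RNA polymerase I genes 0.13 and cytosolic ribosomal proteins 0.06.

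The genes of the polymerases that make other RNAs are set beside the 12.8 percent of all genes that were higher, and how these lists differ from RNA polymerase I was not tested. Of 16 RNA polymerase III genes 5 rose (median 0.32), with Gtf3c5 at 0.65 and Polr3a at 0.65 at its brightest probe set, and Polr3f at 0.62 did not pass (adjusted p = 0.0655). Polr3a lost its call without NFATc1-deficient replicate 1 (adjusted p = 0.139). Of 3 subunits shared by the polymerases Polr2e rose (0.55), and Polr2h (0.47, adjusted p = 0.0685) and Polr2f (-0.40, adjusted p = 0.0636) did not pass. Polr2e did not pass at another probe set, nor without NFATc1-deficient replicate 1 (adjusted p = 0.0853). Of 8 RNA polymerase II subunits Polr2d rose (0.55), with Polr2i at 0.37 and Polr2j at 0.34 not passing, and the list median was 0.30. That is 1 of 8, a share near the background, and Polr2d lost its call without NFATc1-deficient replicate 1 (adjusted p = 0.127).

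Genes with symbols of cytosolic ribosomal proteins, the class of cargo that these factors assemble, had 4 calls. Among 46 genes picked by symbol after the values were seen, 4 were higher and 0 lower, beside 12.8 and 11.9 percent of all genes. Their median of 0.06 became -0.19 under hybridisation-control scaling, when 0 were higher and 3 lower (3.08 and 15.6 percent of all genes). Under quantile scaling 9 were higher and 0 lower (median 0.10), beside 13.5 and 13.3 percent of all genes. Under median scaling 3 were higher and 1 lower, beside 11.6 and 10.7 percent. Those higher were Rpl12 (0.83), Rpl37 (0.54), Rps6 (0.48) and Rpl7l1 (0.45). Rpl7l1 came in by its symbol, and whether its product is part of the finished ribosome was not checked. Rpl39 (-0.67, adjusted p = 0.132) and Rpl14 (0.57, adjusted p = 0.0552) did not pass. Signals were low for Rpl12 (at most 617.2), Rps6 (487.0), Rpl14 (598.6) and Rpl39 (372.7). Rplp0, for example, had 9626.7 and 12093.2 in wild-type cultures and a log2 change of 0.005. Rpl12 had an adjusted p of 0.0609 without NFATc1-deficient replicate 2. Many of these genes have near-identical copies, so their values are uncertain.

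Myc itself, whose product is known to activate polymerase I and many of the members, had signals of 777.5 and 763.1 in wild-type and 1685.0 and 1494.0 in deficient cultures, a log2 change of 1.02 (adjusted p = 0.000705). It was the only 1 of 8 genes of the MYC network tested that passed, a share near the 12.8 percent of all genes called higher. The list median was -0.04, and Mnt (-0.26) and Mlx (-0.24) did not pass. Cell cycle genes moved in the same direction as the members: 21 of 23 rose and 0 fell, beside 12.8 and 11.9 percent of all genes. Their median was 0.97, led by the replication factor Cdc6 (1.57), cyclin Ccne2 (1.49) and the mitotic kinase Bub1 (1.28). Under hybridisation-control scaling 14 of the 23 rose (median 0.69), beside 3.08 percent of all genes. The summed signal of the cell cycle genes was 34224 and 31509 on the wild-type arrays and 63603 and 57378 on the deficient arrays. The part of Myc and of the cell cycle genes in the result was not tested.

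The arrays and their cells were compared once for the whole series. Array medians ran from 111.6 to 130.0, and Nfatc1 fell at its brighter probe set from 5433.6 and 6146.7 to 3018.2 and 4097.9 (log2 change -0.71, SE 0.15, adjusted p = 0.0102), and its call was lost without NFATc1-deficient replicate 1 (adjusted p = 0.085). Where the probes lie relative to the deleted part was not analysed here. All 11 osteoclast markers tested fell (median -1.22), including Oscar, Itgb3 and Calcr, where 11.9 percent of all genes fell. The summed signal of these markers was 65039 and 75015 in wild-type and 30320 and 39050 in deficient cultures. Macrophage markers summed to 36635 and 40235 against 33354 and 31113. Of 10 tested, 1 was higher (Cd14) and 2 lower (Cd68 among them), near the 12.8 and 11.9 percent of all genes.

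Markers of other cells moved on some arrays. Granulocyte markers summed to 7263.1 and 7370.9 in wild-type and to 18074 and 8858.3 in deficient cultures, so the high value was that of NFATc1-deficient replicate 1. Of the 12 markers 4 were higher, S100a8 (1.41), S100a9 (1.34) and Chil3 (1.26) among them, beside 12.8 percent of all genes. Mmp8 had the opposite sign (-0.43) and did not pass. Without NFATc1-deficient replicate 1 the members had a median of 0.44, beside 0.05 for all genes. With median scaling 7 of the 12 granulocyte markers were higher, beside 11.6 percent of all genes. With single arrays left out, the number of these markers called was lowest without NFATc1-deficient replicate 1. Progenitor markers, 4 of 10 bright enough to test, summed to 1046.1 and 741.1 against 1318.2 and 1105.7 with 0 called, and Itga2b (0.67) and Cd34 (0.63) did not pass. Kit never exceeded a signal of 41.9. Lymphoid markers (2 of 8 tested, Il7r higher at 1.15, Cd3e at most 41.0) summed to 548.2 and 403.0 against 637.9 and 620.2. Erythroid markers (1 of 5 tested, 0 called) summed to 162.7 and 127.0 against 166.7 and 218.7, and stromal markers (2 of 6 tested, 0 called, Col1a1 at most 20.4) to 379.5 and 255.2 against 362.7 and 293.2. No marker was listed at 0. The part of these cells in the result was not tested.

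**Figure D4:**
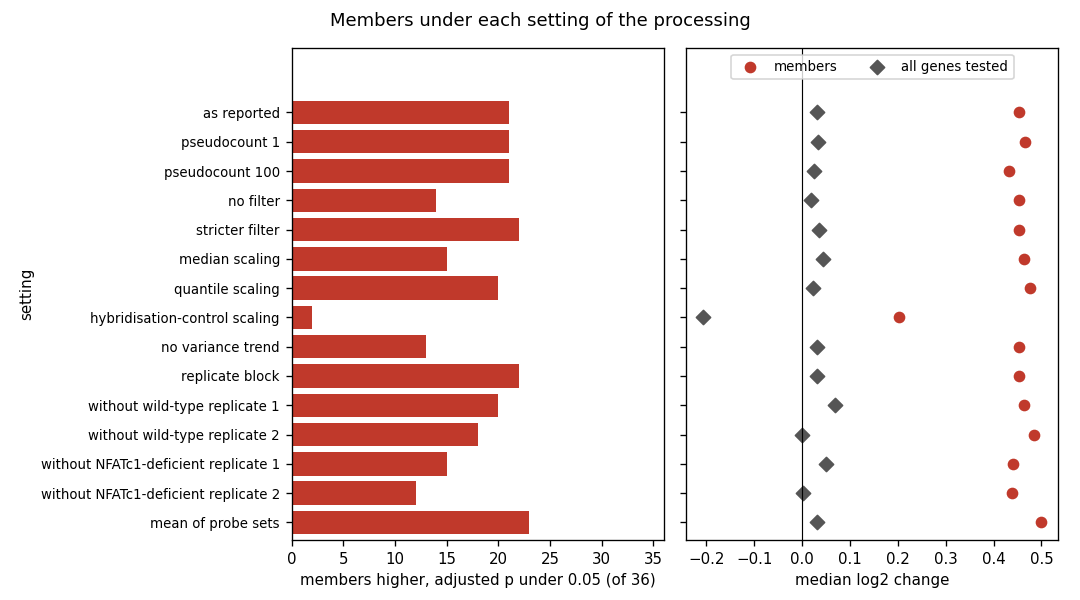
Number of the 36 members called higher (left, bars from 0) and median log2 change (right) of the members (red circles) and of all genes tested (grey diamonds) under each setting of the processing. The count runs from 2 under hybridisation-control scaling to 23 with the probe sets of a gene averaged, and the members' median stays above that of all genes in every setting shown.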

How the data were processed

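RNA was measured on 4 Affymetrix arrays, 2 per genotype. The deposited values are linear probe set intensities, which the authors made with MAS5, per the submitters' processing notes (version not given in the sources used here). MAS5 scales each array by 1 factor, and the mean without the top and bottom 2 percent of values lay at 500.186 to 500.211 on every array. Gene names came from the platform annotation where it gave 1 symbol (20393 of 22690; 691 had several and 1606 none). Through Entrez numbers 20364 matched RefSeq, and 0 symbols changed.

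Signals were analysed as log2(signal + 23.3), the 25th percentile of all values. After 64 control probe sets were left out, the 13578 whose mean log2 value exceeded the 40th percentile were tested two-sided with limma 3.58.1 (R 4.3.3, lmFit and eBayes with an intensity trend), with Benjamini-Hochberg adjustment over all of them and a threshold of 0.05. The brightest tested probe set stood for a gene. Detection calls were not used here, and the number of arrays limits the precision. The labels do not say that a replicate number marks a shared batch, so no block was used. With 2 arrays a genotype, deviations from the genotype mean mirror each other. Same-numbered replicates therefore gave only a single correlation of deviations, 0.132.

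The members and lists were chosen with earlier results of these data known. By rule, values on every array are given for Nfatc1, for the 3 members with the largest and the 1 with the smallest absolute change in each role group, and for members whose probe sets differ in sign or call. Up to 3 genes are named from each other list. The remaining members are given for completeness. Motifs were searched in RefSeq promoter windows of GRCm38.p6.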

Additional observations from a re-analysis of the deposited data

How the results depend on the processing

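The members' median log2 change stayed above 0 and above that of all genes under every alternative run: pseudocount 1 (0.466), pseudocount 100 (0.432), a stricter or no filter (0.452), median scaling (0.463), quantile scaling (0.476), hybridisation-control scaling (0.203), the mean of a gene's probe sets (0.5) and leaving out each array in turn (0.438 to 0.485). The number of members called higher was more variable, and 0 were lower each time. It was 2 with hybridisation-control scaling (4 probe sets), 13 without the variance trend, 14 without a filter, 15 with median scaling, and 12 to 20 genes (24 to 37 probe sets) when each array was left out. With the replicate number as a block it was 22 (15.3 percent of all genes), and the pairing is not established. The share of all genes called higher moved as well, so these member counts are not comparable without it. It was 12.8 percent in the main fit, 7.47 percent without the variance trend, 5.46 percent without a filter and 11.6 percent with median scaling. For the 7 further lists the higher count was 6 with hybridisation-control scaling, 36 without the trend and 31 to 56 without each array. Their lower count was 0 without a filter, with median scaling or without the trend, and 0 to 2 without each array. Under hybridisation-control scaling the split of all genes was 240 higher and 1218 lower, beside 1002 and 928.

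There were 11 members that passed under every alternative except hybridisation-control scaling: Ddx21, Gar1, Gnl3, Nop56, Nop58, Polr1b, Polr1c, Tsr1, Wdr12, Wdr43 and Wdr75. Only Nop56 and Nop58 of all members also passed there. All 21 called members kept a change above 0 in all 13 alternatives run per gene. With 2 arrays a genotype, and no detection calls used, small changes such as those of Polr1a or Rrn3 were not resolved. The cause of these differences was not tested.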
